A study of Mus musculus with 16 samples.

Results

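Sstr3 and 7 other genes of the neuronal primary cilium were followed by RNA sequencing of hippocampal CA1 tissue, from 8 mice labelled Fmr1-KO, a knockout of Fmr1, and 8 wild-type mice (WT) labelled C57BL/6. The members are Sstr3, Adcy3, Mchr1, Htr6, Arl13b, Ift88, Bbs1 and Bbs4, taken by symbol, which makes 8 of 46403 symbols in the tables. Sstr3 was chosen by its fitted genotype difference in these libraries, which ranks high among the genes lower in Fmr1-KO, so that difference is given as a description without a test. All 16 mice were yoked controls of active place avoidance, a spatial task in which mice learn to stay out of a zone. The labels name no treatment, age or sex, and they do not say how the knockout allele was made or whether the genotypes were littermates. Each library carries an animal label of its own, a number and the letter B or D, and the p-values measure the spread between these samples. Numbers 118, 119 and 120 occur with both letters in Fmr1-KO, as do 122, 123 and 125 in WT. Numbers 116 to 120 are all Fmr1-KO and 122 to 126 all WT. The fits had no term for the number, so libraries that share one were treated as independent.

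The primary cilium is a single, non-motile rod of membrane and microtubules that projects from the cell body of most neurons. Motor-driven particles of the intraflagellar transport (IFT) complexes carry cargo along it, and a coat called the BBSome takes part in the traffic of its membrane receptors. Neuronal cilia hold a small set of G protein-coupled receptors together with a dedicated adenylyl cyclase, so that peptides and amines can act on cyclic AMP within the cilium. Sstr3, a receptor for somatostatin, is a classical marker of the cilia of hippocampal pyramidal neurons.

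Total estimated counts ranged from 1480966 to 3275003 in 14 libraries, and were 878484 and 515103 in WT replicates 3 and 6. Levels are given in CPM, counts scaled to a common library total with TMM normalisation, which corrects for differences in composition. Fmr1, the targeted gene, lay between 8.44 and 32.0 CPM in Fmr1-KO and between 39.6 and 99.7 CPM in WT, without overlap, so that Fmr1 reads were lower but present in every Fmr1-KO library. In bulk tissue, fewer cells of a type and less RNA per cell cannot be told apart. All 8 members passed the filter on low counts. None of the 8 had levels that separated the genotypes completely, as 0.0434% of the 11515 genes tested did.

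The promoters of the members were compared, a feature that the choice of members did not use. RFX transcription factors, which regulate many cilium genes, bind the X-box, an imperfect inverted repeat. RefSeq promoters (GRCm38.p6, 250 bases before to 50 bases after each start) were available for all 8 members and were searched for 2 patterns. The first was 1 arm of the repeat, GTTGCC on either strand. The second was the spaced pair GTNNCC, 0 to 3 bases, GGNNAC, which reads the same on both strands and can contain the arm. The arm lay in the promoters of Arl13b, Ift88 and Bbs1, and the pair in those of Bbs1, Bbs4, Adcy3 and Htr6. Neither pattern was found in the windows of Sstr3 or Mchr1. These sites are printed, with the matched letters in capitals within 30 bases, because they are what the promoters of 6 members hold and those of Sstr3 and Mchr1 do not.
Arl13b: acagacgctccaGTTGCCtagttaccagag
Ift88: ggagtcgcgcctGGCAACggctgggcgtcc
Bbs1: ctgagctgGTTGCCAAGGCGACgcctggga
Bbs4: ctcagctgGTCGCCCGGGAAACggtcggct
Adcy3: gtgccacctGTGTCCTGGGAACccactaag
Htr6: ggagcaGTCTCCGGGTACatacaggtcacg
The sites of Ift88 (chr14:57424080-57424109, plus strand), Bbs1 (chr19:4906605-4906634, minus strand), Bbs4 (chr9:59353464-59353493, minus strand) and Adcy3 (chr12:4134160-4134189, plus strand) begin their match just past the RefSeq start, at positions 22, 2, 24 and 17. Those of Arl13b (chr16:62847204-62847233, minus strand) and Htr6 (chr4:139075791-139075820, minus strand) lie upstream, at positions −181 and −244. Adcy3 and Htr6 each have a second window without a match. Among the 27025 genes with a promoter window, 14.1% held the arm and 4.38% the pair. The shares were 35.2% and 18.5% of 108 other tested cilium genes, listed by role further on, and 15.3% and 5.89% of all 8535 tested genes with a window. A match describes the letters only.

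Sstr3 was lower in Fmr1-KO, at 7.56 ± 3.36 CPM against 18.6 ± 7.48 CPM in WT (SD, n = 8 each), 2.46-fold higher in WT by the means. In WT the lowest, median and highest values were 9.03, 18.5 and 28.8 CPM, and in Fmr1-KO 2.13, 9.12 and 10.7 CPM. The groups overlapped at their edges: 6 WT libraries lay above every Fmr1-KO library, while WT replicates 6 and 7 (9.03 and 9.69 CPM) fell within the Fmr1-KO range. Of the Fmr1-KO libraries, 5 clustered between 8.18 and 10.7 CPM, and replicates 1, 8 and 4 stood lower at 5.63, 3.53 and 2.13 CPM. The fitted log2 fold change was −1.31 (SE 0.33), at rank 12 of 11515 genes by p and rank 7 among those lower in Fmr1-KO, the values for which Sstr3 was chosen.

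These levels rest on few reads, 5 to 32 estimated counts per library in Fmr1-KO and 3 to 76 in WT, and the value of WT replicate 6 rests on 3. With both shallow libraries left out, WT averaged 18.5 ± 6.25 CPM (n = 6) and the log2 fold change −1.28. Among animals with the letter B, Sstr3 stood at 19.5 ± 9.45 CPM in WT and 9.13 ± 2.36 in Fmr1-KO (n = 4 each). Among those with the letter D it stood at 17.8 ± 6.25 and 5.99 ± 3.78 CPM (n = 4 each). The log2 fold changes within the letters were −1.12 and −1.60. These are the libraries by which Sstr3 was chosen, so the values within letters describe them only. The gene lies on chromosome 15 at 78537008 to 78544685 (GRCm38, minus strand, ENSMUSG00000044933), overlaps no other annotated gene, and is represented in the tables by the protein-coding transcript Sstr3-201 of 3928 bases alone.

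**Figure D1:**
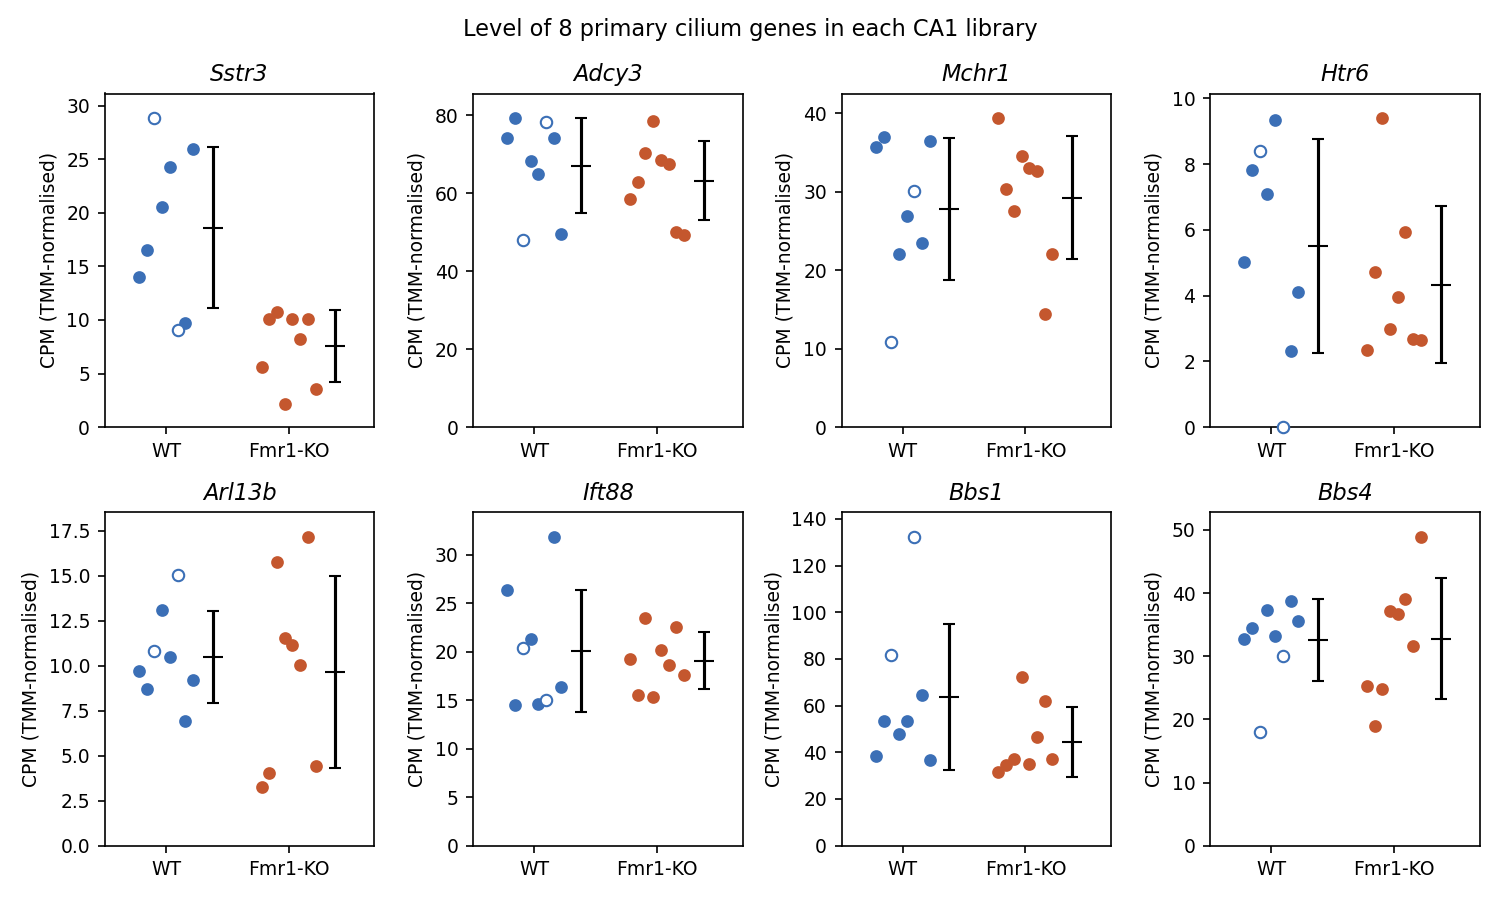
Level of each member in every library, in TMM-normalised CPM on the vertical axis, with WT in blue and Fmr1-KO in orange, open circles for WT replicates 3 and 6, and the mean ± SD in black beside each group. Sstr3 has 6 of 8 WT libraries above every Fmr1-KO library, a description only, because it was chosen for its genotype difference in these libraries. The groups of the other 7 genes overlap broadly.

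The other ciliary receptors did not pass the quasi-likelihood test of edgeR, adjusted over 11515 genes by Benjamini and Hochberg's method, at which 0.0174% of them passed. Mchr1, the receptor for melanin-concentrating hormone, had a lowest, median and highest value of 10.8, 28.5 and 37.0 CPM in WT and 14.5, 31.5 and 39.4 in Fmr1-KO. Its groups covered nearly the same range, and the lowest WT value came from the shallow replicate 3. The log2 fold change of Mchr1 was 0.05 (95% interval −0.42 to 0.51, edgeR adjusted p = 0.971). Mchr1 shares chromosome 15 with Sstr3, at 81235499 to 81238964 (plus strand, ENSMUSG00000050164). Htr6, a serotonin receptor that raises cyclic AMP, had 0, 6.06 and 9.35 CPM in WT and 2.34, 3.47 and 9.40 in Fmr1-KO. The 0 belongs to WT replicate 6, where a count of 0 allows up to 9.03 CPM (3 counts, counting error only), so it shows no absence. For Htr6 the log2 fold change was −0.42 with a wide interval of −1.28 to 0.44 (edgeR adjusted p = 0.832), so no difference was detectable at this depth. The gene lies on chromosome 4 at 139061108 to 139075570 (minus strand, ENSMUSG00000028747).

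Adcy3 encodes the adenylyl cyclase that marks neuronal cilia throughout the brain. Its values were 48.0, 71.3 and 79.3 CPM in WT and 49.4, 65.2 and 78.5 in Fmr1-KO, as lowest, median and highest. The log2 fold change was −0.08 (SE 0.13, 95% interval −0.36 to 0.19, edgeR adjusted p = 0.911), which is the narrowest interval of the set. Adcy3 lies on chromosome 12 at 4133103 to 4213525 (plus strand, ENSMUSG00000020654) and overlaps Cenpo on the opposite strand.

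Arl13b, a small GTPase of the ciliary membrane, and Ift88, a core IFT-B subunit without which cilia do not form, stand for the structure of the cilium. Arl13b had 6.92, 10.1 and 15.04 CPM in WT and 3.28, 10.6 and 17.2 in Fmr1-KO. Fmr1-KO replicates 1, 2 and 8 lay below every WT library, and replicates 3 and 7 above, so that the knockout group was the more scattered (SD 5.33 against 2.56 CPM). The log2 fold change of Arl13b was −0.05 (95% interval −0.75 to 0.65, edgeR adjusted p = 0.980). Ift88 had 14.5, 18.4 and 31.8 CPM in WT and 15.4, 18.9 and 23.5 in Fmr1-KO, with the knockout libraries inside the WT range. Its log2 fold change was −0.09 (95% interval −0.51 to 0.34, edgeR adjusted p = 0.944). Arl13b (chromosome 16, 62793685 to 62847040, minus strand, ENSMUSG00000022911) overlaps Stx19 and a microRNA gene on the opposite strand, and Ift88 (chromosome 14, 57424062 to 57517936, plus strand, ENSMUSG00000040040) overlaps the antisense gene Ift88os and a processed pseudogene.

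Bbs1 and Bbs4 encode subunits of the BBSome, and mice lacking Bbs4 are known to lose Sstr3 and Mchr1 from neuronal cilia. Bbs1 had 36.9, 53.5 and 132 CPM in WT and 31.4, 37.1 and 72.1 in Fmr1-KO. The 2 highest values, 81.6 and 132 CPM, belong to the shallow WT replicates 3 and 6. Its log2 fold change was −0.41 (95% interval −0.89 to 0.07, edgeR adjusted p = 0.672) over all libraries and −0.13 without those 2 (edgeR adjusted p = 0.894). Bbs4 had 18.0, 33.9 and 38.8 CPM in WT and 18.9, 34.1 and 48.9 in Fmr1-KO, with a log2 fold change of −0.01 (95% interval −0.40 to 0.38, edgeR adjusted p = 0.994). Bbs1 lies on chromosome 19 at 4886878 to 4906628 (minus strand, ENSMUSG00000006464) and overlaps the small nuclear RNA gene Gm25334 on the opposite strand. Bbs4 lies on chromosome 9 at 59321990 to 59353508 (minus strand, ENSMUSG00000025235), where it overlaps Adpgk on the opposite strand.

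Across the 7 members other than Sstr3, 0 passed the edgeR threshold and 0 had an unadjusted p under 0.05, a level that 7.89% of all tested genes reached. DESeq2 likewise gave 0 of 7 at an unadjusted p under 0.05, beside 9.12% of all tested genes. Whether Sstr3 differed from them was not tested, because it had been chosen for its value.

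**Figure D2:**
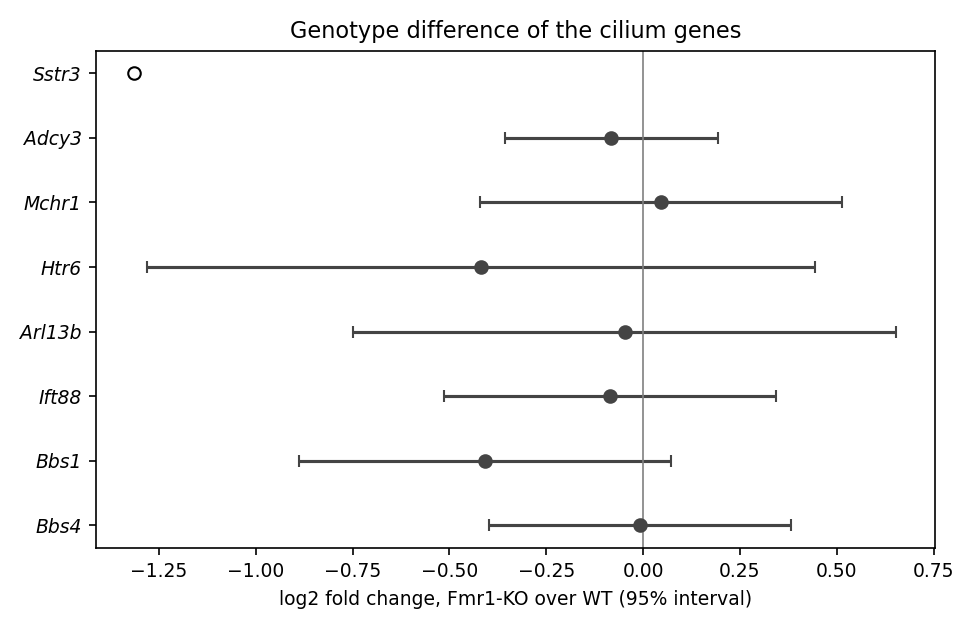
Log2 fold change of each member, Fmr1-KO over WT, on the horizontal axis, with bars for the 95% interval of the edgeR fit; the open circle is Sstr3, drawn without an interval because it was chosen for this value. The grey line marks 0, and all 7 intervals include it.

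Per length, Adcy3, Mchr1 and Bbs4 were the most abundant members and Sstr3 and Htr6 the least. TPM values, which the deposited tables scale by effective transcript length, gave the order Adcy3 (26.3 ± 11.6 TPM, SD, n = 16 libraries), Mchr1 (23.2 ± 10.7), Bbs4 (22.5 ± 9.47), Bbs1 (13.9 ± 4.74), Ift88 (12.2 ± 6.93), Arl13b (7.44 ± 4.99), Sstr3 (5.33 ± 3.44) and Htr6 (4.15 ± 2.58). Neighbours in this order were compared within libraries on log2(TPM + 0.1) by a two-sided exact paired permutation test, adjusted over 7 pairs. The step from Ift88 to Arl13b passed, with a mean log2 difference of 0.79 (SD 0.86, higher in 14 of 16 libraries, exact permutation adjusted p = 0.00812). The step from Bbs4 to Bbs1 also passed, at 0.56 (SD 0.69, 14 of 16 libraries, exact permutation adjusted p = 0.0271), though not when Fmr1-KO replicate 5, Fmr1-KO replicate 8 or WT replicate 8 was left out (exact permutation adjusted p = 0.0528, 0.0538 and 0.0519). The other 5 neighbouring pairs did not pass over the 16 libraries. Among them, Mchr1 and Bbs4 were 0.02 apart on the log2 scale (SD 0.55). In the 8 WT libraries alone, Bbs4 over Bbs1 fell short, at 0.34 (exact permutation adjusted p = 0.428), while Ift88 over Arl13b still passed, at 0.78 (exact permutation adjusted p = 0.0273). There the mean log2 difference was 0.94 for Sstr3 over Htr6 and −0.23 for Arl13b over Sstr3. The pairs with Sstr3 are given as a description only, here and over the 16 libraries, because the levels of Sstr3 entered its choice.

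**Figure D3:**
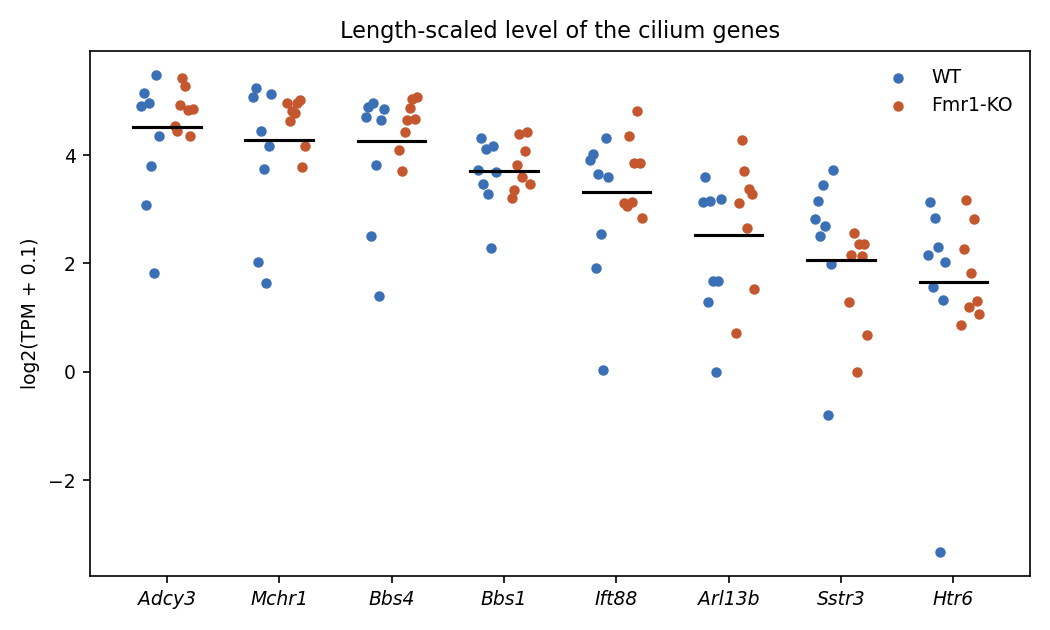
Length-scaled level of each member as log2(TPM + 0.1) on the vertical axis, ordered by mean TPM, with WT libraries in blue, Fmr1-KO libraries in orange and a black bar for the mean of the 16 log2 values. By the mean of all 16 libraries Sstr3 and Htr6 sit lowest, with the Fmr1-KO values for which Sstr3 was chosen included. Both spread over several log2 units, and Adcy3, Mchr1 and Bbs4 share the top.

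The division of reads between annotated transcripts was examined for the members with more than 1. Of 22 listed member transcripts 12 passed the filter, 11 of them outside Sstr3. Of those 11, 0 passed the edgeR test with Benjamini-Hochberg adjustment over 16772 transcripts (0.00596% passed) and 0 had an unadjusted p under 0.05. Adcy3 reads were spread over 3 protein-coding transcripts, Adcy3-001 (35.5% of its estimated counts), Adcy3-201 (31.3%) and Adcy3-002 (19.4%), and the intron-retaining Adcy3-004 (12.7%). Adcy3-201 stood at 28.5 ± 14.9 CPM in WT and 17.2 ± 12.1 in Fmr1-KO, and Adcy3-002 at 7.96 ± 12.8 and 13.7 ± 8.07 CPM, with several libraries at 0 for the latter. Transcripts of 1 gene share sequence, so the division between them is less certain than their sum. The intron-retaining Ift88-002 took 40.7% of the Ift88 counts, next to 55.0% for the protein-coding Ift88-001. Arl13b was mostly Arl13b-001 (92.1%) and Htr6 mostly Htr6-001 (88.5%). Mchr1, Bbs1, Bbs4 and Sstr3 have 1 transcript each in the tables.

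**Figure D4:**
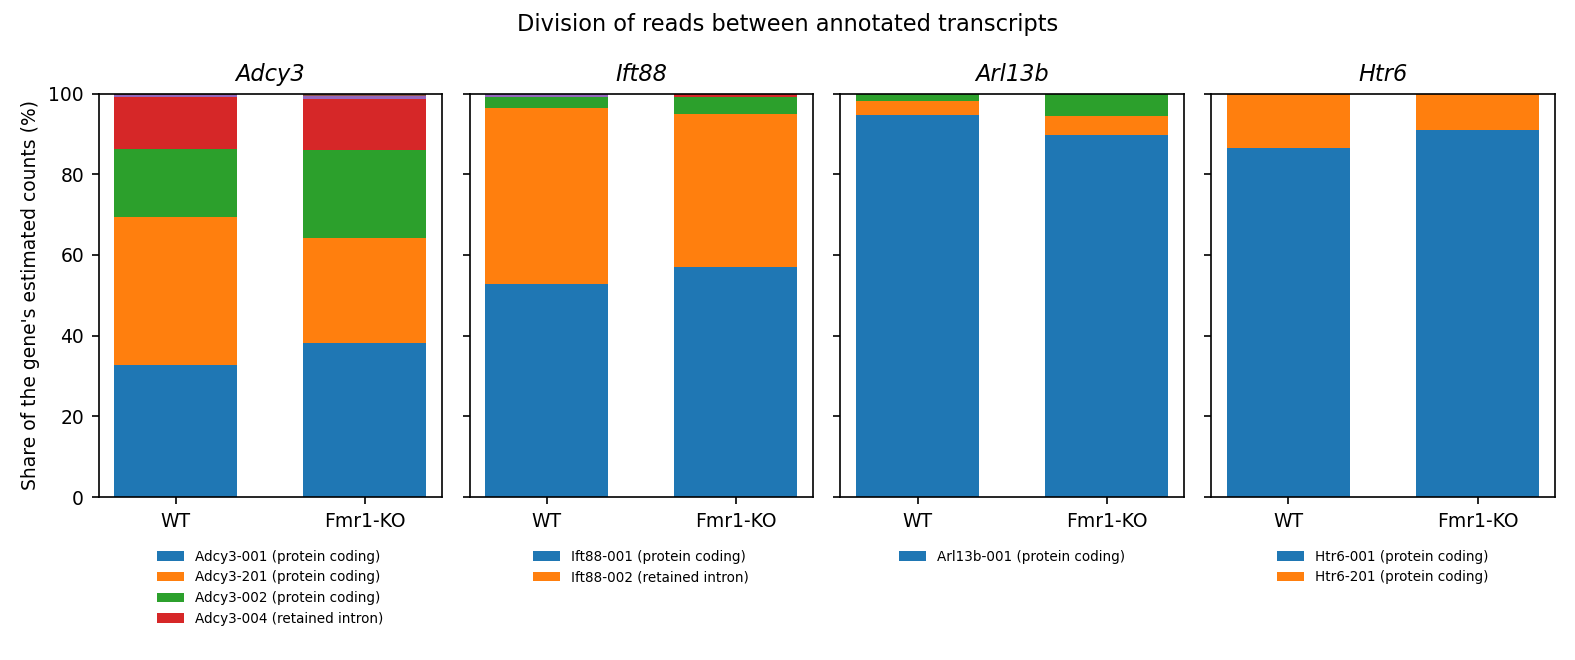
Share of each gene's estimated counts assigned to its annotated transcripts, in percent on the vertical axis, summed over the 8 WT or 8 Fmr1-KO libraries; thin segments without a name are transcripts with small shares. The protein-coding Arl13b-001 and Htr6-001 hold most reads of their genes, and Ift88-002, annotated as retaining an intron, holds 43.7% of the Ift88 reads in WT and 37.9% in Fmr1-KO.

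Somatostatin itself and its other receptors set the level of Sstr3 in context. Sst, the ligand gene expressed by a class of interneurons, varied widely between animals, at 33.6 ± 37.2 CPM in WT and 25.4 ± 25.3 in Fmr1-KO, with a log2 fold change of −0.44 (SE 0.76, edgeR adjusted p = 0.917). Sstr4, a somatostatin receptor known from hippocampal pyramidal neurons, stood at 88.8 ± 24.9 CPM in WT and 105 ± 18.2 in Fmr1-KO (log2 fold change 0.22, SE 0.16, edgeR adjusted p = 0.735). Per length Sstr4 reached 129 ± 53.2 TPM over the 16 libraries, compared with 5.33 ± 3.44 TPM for Sstr3. Sstr1, Sstr2 and Sstr5 had 72, 34 and 1 counts over all libraries and were not tested. Npy, for neuropeptide Y, had a log2 fold change of −0.50 (SE 0.49, edgeR adjusted p = 0.829). Cort, for cortistatin, which also binds somatostatin receptors, had 77 counts in all, and Pmch, which encodes melanin-concentrating hormone, had 2. Gal and Kiss1 had 0 counts, which allows up to 0.0807 CPM over the 16 libraries together (3 counts, counting error only).

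A further 164 genes of the cilium and of Hedgehog signalling, which runs through the cilium, were sorted by role into 13 lists. Of these, 130 were tested, and 0 passed the edgeR threshold in either direction (lowest adjusted p 0.572). At an unadjusted p under 0.05 there were 2 higher and 7 lower in edgeR, and 13 of 130 in either direction in DESeq2, where 9.12% of all tested genes reached that level. For comparison, 3.61% of all tested genes were higher and 4.28% lower at that level in edgeR. The median log2 fold change of the 130 was 0.01, with 48.5% below 0, beside a median of −0.01 and 51.9% for all tested genes.

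The 6 other ciliary receptors tested had a median log2 fold change of 0.05. Gpr161, a ciliary receptor that restrains Hedgehog signalling, had 0.17 (276 ± 56.3 CPM in WT, 312 ± 43.2 in Fmr1-KO, edgeR adjusted p = 0.751), and the orphan receptor gene Gpr63 had 0.20. The 9 genes listed for ciliary cyclic AMP signalling had a median of −0.05, with −0.12 for Gnas, the stimulatory G protein subunit, and 0.03 for the protein kinase A subunit gene Prkar1a.

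Of the BBSome and its chaperones 9 genes were tested, with a median of −0.01; Bbs5 had 0.13 and Ttc8, another BBSome subunit, −0.36. The 14 IFT-B genes had a median of −0.01, and Ift172 stood at 99.3 ± 16.3 CPM in WT and 97.7 ± 22.7 in Fmr1-KO. Ift46, also of IFT-B, had 0.27. For IFT-A and the tubby proteins, which bring receptors into the cilium, the median of 7 genes was 0.10, with 0.07 for Wdr35 and 0.10 for Tub. The 12 motor genes had a median of 0.13, or 0.08 without WT replicates 3 and 6. Among them, Kifap3, the accessory subunit of kinesin-2, had 0.26 (edgeR adjusted p = 0.624), or 0.17 without those replicates. The dynein light chain gene Dynlrb1 had −0.33 (edgeR adjusted p = 0.672), or −0.31 without them. The 19 ciliary GTPases and lipid-cargo genes had −0.08, with −0.15 for Arl3, which releases lipidated cargo, and 0.05 for Rab10.

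At the base of the cilium, the 19 transition zone genes, which form its gate, had a median of 0.04, and Ahi1, mutated in Joubert syndrome, stood at 276 ± 25.7 CPM in WT and 276 ± 32.7 in Fmr1-KO. Iqcb1 had −1.74 (edgeR adjusted p = 0.572) over all libraries but 0.01 without WT replicates 3 and 6, where it reached 318 and 882 CPM. The 19 basal body and assembly genes had 0.07, with 0.19 for the kinase gene Mark4 and 0.02 for Odf2. In the Hedgehog pathway 10 of 16 genes were tested, with a median of −0.15; the cilium-base genes Evc and Evc2 had −0.19 and −0.15, and Evc had 0.09 without WT replicates 3 and 6. The 5 RFX factor genes tested had −0.01, with Rfx1 at −0.01 and Rfx5 at −0.69 (edgeR adjusted p = 0.628).

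**Figure D5:**
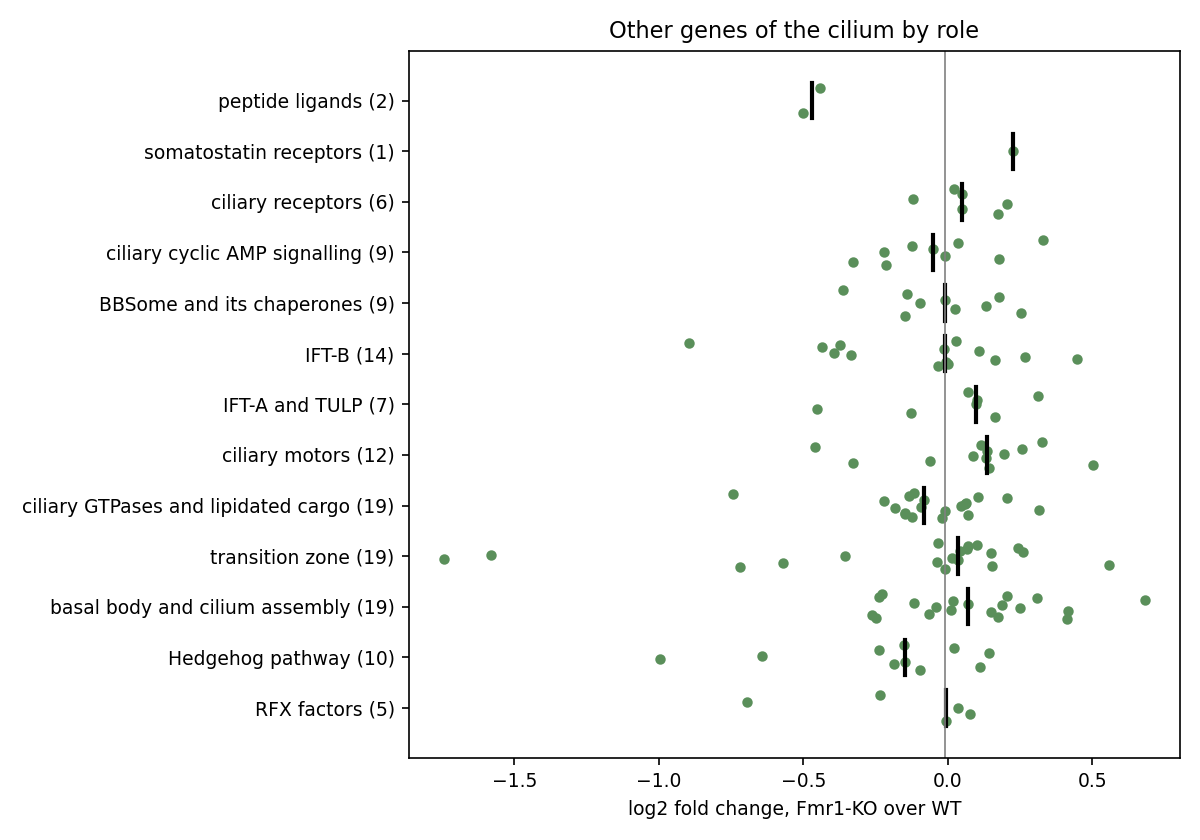
Log2 fold change, Fmr1-KO over WT, of each tested gene (green points) in 13 role lists without the members, with the number tested in brackets, a black bar for each list's median and a grey line for the median of all tested genes. Medians of lists with at least 5 tested genes lie between −0.15 and 0.13, and the point at −1.74 is the transition zone gene Iqcb1.

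Markers of the dissected cells were read in the same libraries. The 7 CA1 pyramidal markers summed to 7083 to 9597 CPM in WT and 7711 to 8785 CPM in Fmr1-KO. Without WT replicates 3 and 6 the WT sum was 7504 to 8259 CPM. Camk2a and Slc17a7 were the largest parts, at means of 4096 and 1571 CPM in WT, followed by Wfs1 and Fibcd1 at 976 and 664 CPM. Motile cilia of the ependyma were nearly absent: 0 of 8 markers passed the filter, their sum was at most 3.67 CPM in WT and 10.8 in Fmr1-KO, and Tmem212 and Dynlrb2 had 0 counts. All 6 astrocyte and all 6 endothelial markers had log2 fold changes below 0 (medians −0.39 and −0.67), as did all 6 oligodendrocyte and all 5 tested microglial markers (−0.38 and −0.31), and none passed the edgeR threshold. Without WT replicates 3 and 6 the medians were −0.10 for astrocytes, −0.24 for endothelium, −0.37 for oligodendrocytes and −0.14 for microglia. The oligodendrocyte sum was 239 to 648 CPM in WT, the same without those replicates, and 222 to 435 CPM in Fmr1-KO. The microglial sum was 124 to 307 CPM in WT, or at most 152 CPM without them, and 96.0 to 198 CPM in Fmr1-KO. The astrocyte sum was 383 to 1450 CPM in WT, or at most 593 CPM without WT replicates 3 and 6, and 415 to 510 CPM in Fmr1-KO. The endothelial sum was 83.7 to 351 CPM in WT, or at most 142 CPM without those replicates, and 77.6 to 143 CPM in Fmr1-KO. The 6 dentate granule markers summed to 7.20 to 66.2 CPM in WT, or at most 25.4 CPM without those replicates, and to 7.18 to 22.3 CPM in Fmr1-KO. Of the 8 interneuron markers, 6 had log2 fold changes below 0 (median −0.23, or −0.07 without WT replicates 3 and 6). Of the 3 CA3 markers tested, 2 were below 0 (median −0.18, or −0.12 without those replicates). For CA2 and choroid plexus 1 marker each was tested, at 0.20 and 0.18. None of these passed the edgeR threshold. The part of these cell types in the Sstr3 values was not tested.

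The genes with a pattern most like that of Sstr3 were sought among 9288 genes, by Pearson's r of log2 CPM over the 16 libraries. The mean of each genotype was subtracted first. The 9288 were the genes with a mean of at least 10 CPM, and the members at any level. The nearest 5 were Ghitm (r = 0.81), Echdc1 (0.78), Tomm20 (0.78), Pgap3 (0.77) and Carhsp1 (0.77), chosen as the highest of many, with libraries and depth in common and no test. Without WT replicates 3 and 6 their r lay between 0.73 (Tomm20) and 0.91 (Echdc1). Of the members, Htr6 came nearest, at r = 0.63 (0.56 without those replicates), followed by Arl13b at 0.20 and Ift88 at 0.03. Htr6 is below 10 CPM, at 5.51 in WT and 4.34 in Fmr1-KO, with 0 to 28 counts per library. Mchr1 (−0.28), Bbs1 (−0.40), Adcy3 (−0.44) and Bbs4 (−0.46) had negative values.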

How the data were processed

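Libraries of CA1 RNA from 16 mice were made for Illumina HiSeq sequencing, per the labels' protocols. FastQC, cutadapt, kallisto and DESeq2 are listed in the submitters' processing notes. For none of them is a version or transcript index given in the sources used here. The deposited estimated counts per transcript (111706 per library) were summed by symbol and rounded. The deposited TPM values, scaled by effective length by the authors, served for levels between genes. For the genotype contrast they served only as alternatives to the main setting, since on log2(TPM + 1) the median of all genes was 0.55 higher in Fmr1-KO.

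Genes were tested with edgeR 4.0.16 (quasi-likelihood, TMM, filterByExpr with a minimum count of 10, no covariate, Benjamini-Hochberg, threshold 0.05) in R 4.3.3. Standard errors are the log2 fold change divided by the root of F. Alternatives used DESeq2 1.42.0 and limma 3.58.1. Permutation tests were run in SciPy 1.17.1. Transcript levels use the scaling of the gene fit. The script was tested on simulated data. Positions come from GENCODE M21 (GRCm38), joined by gene identifier. Reads of opposite-strand genes may not be separable, since strandedness is not stated.

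Members and lists were chosen with earlier results of these data known. Named genes are the members, all ligands and somatostatin receptors, and the 2 tested genes with the highest mean TPM in each list. Tmem212 and Dynlrb2 were named after their values were seen.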

Additional observations from a re-analysis of the deposited data

Results flagged for a closer look

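In 2 of 16 groups of 8 libraries, 1 library lay far from the others by Dixon's criterion, which chance meets in about 1 of 20 groups. Bbs1 reached 132 CPM in WT replicate 6, and Bbs4 stood at 18.0 CPM in WT replicate 3. Both are the libraries of lowest depth, with 515103 and 878484 counts. They also have the largest shares of counts in their 10 largest genes, 31.59% and 10.35%. The Bbs1 log2 fold change was −0.41 with them and −0.13 without, and that of Bbs4 was −0.01 and −0.10.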

How the results depend on the processing

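The log2 fold change of Sstr3 lay between −1.60 and −1.12 over 28 alternatives (−1.41 to −1.17 with each library left out in turn), all lower in Fmr1-KO, with values from TPM taken relative to the median of all genes. All of them reuse the libraries by which Sstr3 was chosen, so the constant direction is a description and no independent support. The members other than Sstr3 and the wider cilium genes gave 0 calls in every alternative run that yields adjusted p-values for them, and so did member transcripts in 4 alternatives. DESeq2 gave no adjusted p for the 7 other members and one for only 13 of the 130 wider genes. Values within the letters B and D were added after seeing the data. The number of neighbouring pairs in the order of levels that passed ranged from 1 to 3 around 2 when each library was left out, falling to 1 without Fmr1-KO replicate 5, Fmr1-KO replicate 8 or WT replicate 8 because Bbs4 over Bbs1 no longer passed, and rising to 3 without Fmr1-KO replicate 6. The median of the wider list moved from 0.01 to −0.05 in log2(TPM + 1). No paired analysis was possible because the genotypes share no animal numbers in the labels. Depth limits Htr6, Sstr3 and Arl13b most, with medians of 9.5, 26 and 27 counts per library.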
